A study of Mus musculus with 18 samples.

Results

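The cytosolic ribosomal protein genes encode the proteins of the ribosome that translates nuclear mRNAs. They were taken as every row whose whole mouse symbol was Rps or Rpl and a number. A final a, x, l, y or k was allowed. Rpsa, Rplp0, Rplp1 and Rplp2 were added, and names of numbered pseudogenes were left out. The rule named 82 of 30072 genes in the table, and 77 of them, among 15054 genes tested, reached a level of 0.23 CPM (read counts relative to library size) in 6 or more mice. Of the 77, 31 belong to the small subunit, 43 to the large subunit and 3 to the stalk of the large subunit. The 5 genes left out were Rps27, Rpl29, Rpl10l, Rpl39l and Rpl6l, none of which had more than 2 rounded counts in any mouse. The nearest member above the limit was Rpl34, whose sixth highest mouse had 3.17 CPM by library size alone, as for the limit.

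Hearts of 18 outbred CD-1 mice were measured by RNA sequencing, in groups of 6: controls, mice killed 2 weeks post-IR and mice killed 6 weeks post-IR, where IR was 25 Gy given to the heart in 1 session. Controls were not irradiated: the labels call them untreated, and the methods describe a sham group given anaesthesia and CT imaging. The labels place the tissue in the intraventricular septum while the study's methods speak of ventricular tissue. All groups were adult littermates of both sexes, no sex is given per mouse, and no transgene or other agent is listed. Radiation is called gamma in the labels and X-rays in the methods.

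Ribosomal proteins are needed in matching amounts and assembled with ribosomal RNA in the nucleolus, so their mRNAs are usually expressed together. Most of these mRNAs begin with a run of pyrimidines, the terminal oligopyrimidine tract, through which mTORC1 signaling sets how strongly they are translated. When assembly is disturbed, free RPL5 and RPL11 bind MDM2 and stabilize p53, and several paralogs, such as RPL3L in striated muscle and RPS27L downstream of p53, can replace the common protein.

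Total estimated counts ran from about 11523000 to 15501000 per mouse, and 3 counts, the floor used here, correspond to 0.194 to 0.260 CPM. No marker in any list was at 0 in every mouse, and cardiomyocyte markers were abundant in all mice, as the tissue label requires. At 6 weeks 9 of 10 cardiomyocyte markers fell (2 of 10 with library size as the only scaling), their sum ranging over 101579 to 137202 CPM in control hearts and 90539.7 to 102039 CPM then. Of 10 macrophage markers 8 rose and 1 fell, the sum ranging over 184 to 538 CPM in control hearts and 457 to 616 CPM at 6 weeks. T and NK cell markers rose in 4 of 6 tested and B cell markers in 2 of 4 tested. The genes called in these 2 lists had control means of 0.0836 to 0.232 CPM, under or within the range of the floor. Their 6-week means were 0.524 to 0.818 CPM, so they could reach the level limit through the 6-week mice alone. Endothelial markers rose in 2 and fell in 3 of 9, and 1 of 9 fibroblast and 1 of 4 red cell markers fell. No atrial, mural, Schwann or adipocyte marker was called. Of all genes tested, 13.5% rose and 11.5% fell at 6 weeks. The share of counts in mitochondrially encoded genes had a median of 23.2% in control hearts, 20.2% at 2 weeks and 17.4% at 6 weeks. With those genes removed from the fit, 4 members were called lower at 2 weeks, 2 higher at 6 weeks and 3 higher between the times, as with them. The part of the cell markers in the results was not tested, and in whole tissue fewer cells of a type and less RNA per cell cannot be told apart.

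Most members with a listed start site held a pyrimidine run near it. RefSeq promoters (GRCm38.p6) were given for 57 of the 77 genes. Any listed start of a gene counted, and the run could lie before or after it. Of the 57, 49 held at least 8 unbroken bases of C or T on the sense strand within 50 bases of a start. The same was true of 39.3% of all 27025 genes of that table and of 24 of 68 mitochondrial ribosomal protein genes (35.3%). Among members the share was 93.9% in the large and 77.3% in the small subunit. The 10 bases before and 20 after the first listed start follow for 5 members called in at least 1 comparison below and for Rps6, with the longest such run in capitals.
Rps15a, chr7:118116128-118116157, minus strand: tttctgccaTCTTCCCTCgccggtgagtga
Rps21, chr2:180257369-180257398, plus strand: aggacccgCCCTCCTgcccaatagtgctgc
Rps13, chr7:116334171-116334200, minus strand: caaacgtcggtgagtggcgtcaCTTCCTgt
Rpl12, chr2:32961702-32961731, plus strand: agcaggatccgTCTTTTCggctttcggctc
Rps27l, chr9:66946076-66946105, plus strand: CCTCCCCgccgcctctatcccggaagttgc
Rps6, chr4:86857348-86857377, minus strand: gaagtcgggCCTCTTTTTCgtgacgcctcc
The printed runs were 9 bases in Rps15a, 10 in Rps6, 7 in Rps21, Rpl12 and Rps27l, and 6 in Rps13. Within 50 bases of its start, the longest run of Rps13 was also 6, under the limit of 8. A run in these letters is a description of the sequence and was not tied to any change below.

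Per transcript length, the members spanned a wide range of levels. On the TPM scale, which corrects for transcript length, Rps29, a small-subunit protein, was highest, at 1440.03, 1623 and 1910.4 TPM (lowest, median and highest control). Rplp1, an acidic protein of the stalk, followed at 982 to 1351 TPM and Rpl41, the smallest protein of the large subunit, at 790 to 1079 TPM, and the ranges of these 2 overlapped in controls. Rps29 did not overlap with either. At the other end stood Rps4l at 4.27 to 9.89 TPM and Rpl34 at 6.59 to 10.2 TPM, with overlapping ranges, and Rpl34 had the lowest mean over all mice. Of the 6 lowest members, 5 (Rpl34, Rpl3, Rpl5, Rpl12 and Rpl27) had 85.4 to 96.0% of the reads of their sequence family in rows of pseudogene copies, as described below.

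At 2 weeks post-IR, 4 of the 77 genes were lower than control and none was higher. All 4 encode proteins of the small subunit: Rps15a, Rps14, Rps21 and Rps13. The median log2 fold change was -0.09 in the small subunit (22 of 31 below 0) and -0.11 in the large (35 of 43 below 0). With DESeq2 the large-subunit genes Rpl23a and Rpl39 were among those called lower. A gene was called at an adjusted P under 0.05, and the members called were 5.19% of 77, near the background of 5.02% over all tested genes (3.09% up and 1.93% down). None of the 77 passed with an absolute log2 fold change above 1, as 0.903% of all genes did. The median log2 fold change was -0.10 over the 77 genes (59 of them below 0) and -0.00 over all genes tested. Without control 3, or without mouse 2 or mouse 5 of the 2-week group, 2 members were called. On the log2(TPM + 1) scale Rps13 and Rps14 were above control, at 0.04 and 0.06. Among 34 other settings run, Rps15a was called lower in 32, Rps21 in 31, Rps13 in 26 and Rps14 in 21.

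Rps15a (ENSMUSG00000008683, chr7:118104372-118116188, minus strand) was at 131, 138 and 154 CPM in controls (lowest, median and highest) and at 92.1, 103 and 116 CPM at 2 weeks. The groups did not overlap, and Rps15a fell by 0.44 on the log2 scale (SE 0.06, edgeR adjusted P = 0.000445), or 26.5%. Rps14, a protein of the platform of the small subunit, had 212, 215 and 236 CPM in controls against 166, 184 and 207 CPM at 2 weeks. Its groups did not overlap either, and the change was -0.25 (SE 0.07, edgeR adjusted P = 0.0364). Rps21, found only in ribosomes of eukaryotes, went from 132, 145 and 150 CPM to 103, 119 and 133 CPM, with 1 mouse at 2 weeks above the lowest control (change -0.28, SE 0.07, edgeR adjusted P = 0.0192). Rps13, which touches the large subunit across the interface, went from 110, 126 and 135 CPM to 98.01, 107 and 113 CPM with overlapping groups (change -0.23, SE 0.06, edgeR adjusted P = 0.0248).

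**Figure D1:**
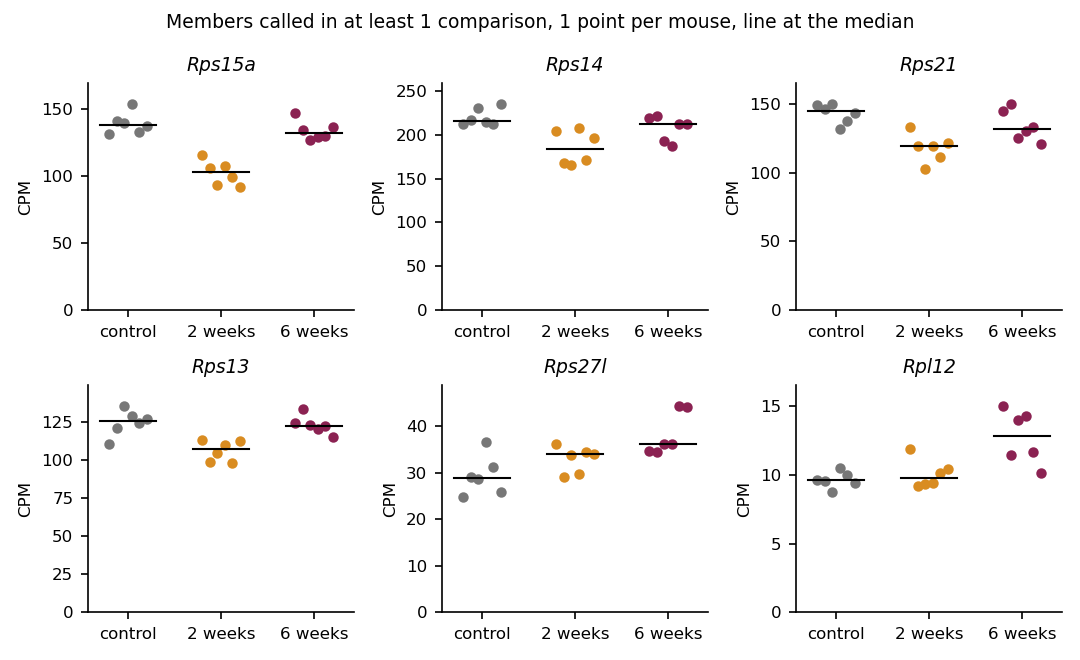
CPM (counts relative to library size, scaled by TMM) of the 6 ribosomal protein genes called in at least 1 comparison, with 1 point per mouse, a line at the group median and the group on the horizontal axis. Rps15a is lower at 2 weeks than in every control and at 6 weeks lies at 127 to 147 CPM, while the highest mice of Rps27l and Rpl12 are at 6 weeks.

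At 6 weeks post-IR, 2 of 77 genes were called, Rps27l and Rpl12, both higher, whereas 25.0% of all genes tested were called (13.5% up and 11.5% down) and 5.95% passed with an absolute log2 fold change above 1. The members called were 2.60% of the 77. Without control 4, 2 were higher and 2 lower. No member was called lower and none passed the fold limit. The median log2 fold change over the 77 genes was -0.02, as it was over all genes tested, and 63 of the 77 lay within 0.25 of 0. For 51 genes the 95% interval of the change lay within 0.5 log2 to either side of 0, and for 5 it was wider than 1 log2 to each side of the estimate.

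Rps27l (ENSMUSG00000036781, chr9:66946086-66949516, plus strand), a paralog of Rps27 known as a p53 target gene, had 24.9, 28.8 and 36.6 CPM in controls, 29.0, 33.9 and 36.1 CPM at 2 weeks and 34.5, 36.1 and 44.3 CPM at 6 weeks. The highest control lay within the range at 6 weeks. Rps27l rose by 0.38 on the log2 scale at 6 weeks (SE 0.10, edgeR adjusted P = 0.00675), or 30.3%, and this call stood under all 34 other settings run. At 2 weeks its change was 0.16 (SE 0.10, edgeR adjusted P = 0.369). Rpl12 (ENSMUSG00000038900, chr2:32961559-32965345, plus strand), which lies at the base of the stalk, had 8.79, 9.61 and 10.5 CPM in controls, 9.22, 9.78 and 11.9 CPM at 2 weeks and 10.2, 12.8 and 15.04 CPM at 6 weeks. Its row rose by 0.40 at 6 weeks (SE 0.10, edgeR adjusted P = 0.00598), with 1 mouse at 6 weeks below the highest control. The row holds a small part of the reads of its sequence, and the sum with its copies was not called (below).

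Between 2 and 6 weeks, 3 genes were higher at the later time, Rps15a, Rps13 and Rpl12, and none was lower. This was 3.90% of the 77, against 5.33% of all genes called, 3.31% up, 2.01% down and 1.14% past the fold limit. The count was 1 without mouse 3, 4 or 5 of the 2-week group or mouse 1 or 3 of the 6-week group, and 5 without control 4 or 6. The change from 2 to 6 weeks is also the test of whether the effects at the 2 times differed. Rps15a returned to 127, 132 and 147 CPM at 6 weeks (change from 2 weeks 0.39, SE 0.06, edgeR adjusted P = 0.00272) without overlap between the times, and its change from control was then -0.06 (SE 0.06, edgeR adjusted P = 0.544). Rps13 was at 115, 123 and 133 CPM at 6 weeks, above every mouse at 2 weeks (change 0.21, SE 0.06, edgeR adjusted P = 0.0364). Rpl12 differed by 0.35 between the times (SE 0.10, edgeR adjusted P = 0.0486), with overlapping values. The values for Rps14 and Rps21 were 0.16 and 0.19 (SE 0.07 for both, edgeR adjusted P = 0.158 and 0.102). The median over the 77 genes was 0.10 (57 above 0), against -0.00 over all genes tested. These comparisons share mice, so that a low 2-week group enters both its change from control and the change to 6 weeks. Among 34 other settings run, the rise from 2 to 6 weeks was called for Rps15a in 34, Rps13 in 24 and Rpl12 in 17.

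**Figure D2:**
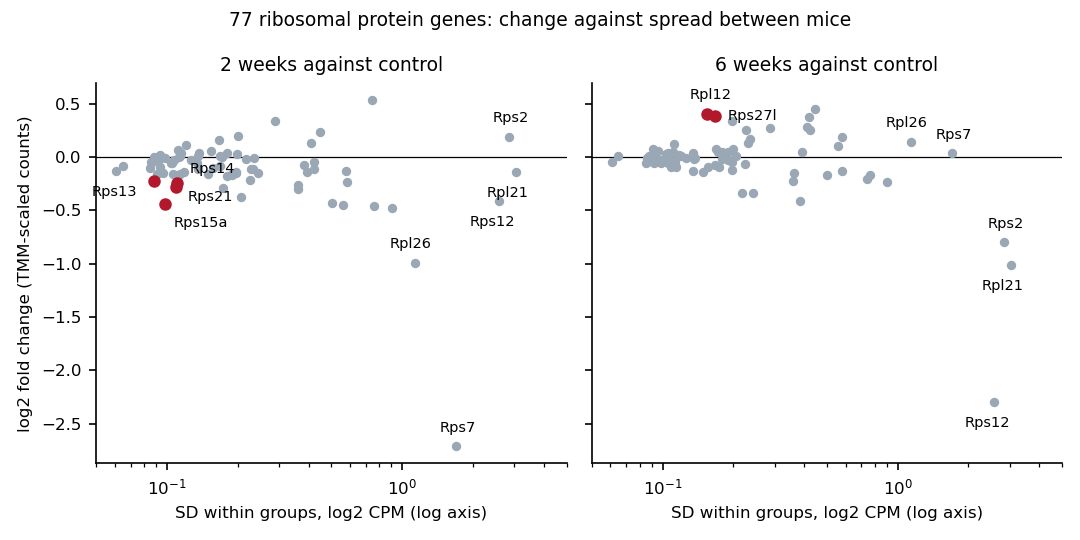
Log2 fold change of each of the 77 ribosomal protein genes against control (vertical axis) and the standard deviation of log2 CPM within groups (horizontal log axis) at 2 weeks (left) and 6 weeks (right). Red points are genes with an adjusted P under 0.05, all of them at low spread, while the changes beyond 1 belong to Rps7, Rps12 and Rpl21, which with Rps2 have the 4 widest spreads within groups.

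How far the family moved depended on the scaling. Mean TMM factors were 0.909 in controls, 1.01 at 2 weeks and 1.09 at 6 weeks, and library size alone moved the median change of all genes to 0.15, 0.24 and 0.11 in the 3 comparisons in the order above. Under library size alone, 3 members were higher and 1 lower at 2 weeks, 45 were higher at 6 weeks, and 15 were higher at 6 than at 2 weeks, when 11.3%, 36.5% and 7.29% of all genes were higher. Relative to all genes the members moved little: their median minus that of all genes was -0.10, 0.01 and 0.10 under library size alone, and -0.10, 0.00 and 0.10 under TMM. On the log2(TPM + 1) scale 14 members were higher at 2 weeks, 57 at 6 weeks and 15 between the times, with no member lower, when 18.4%, 48.9% and 6.82% of all genes were higher. The difference of medians was there -0.02, 0.10 and 0.13. The 2-week values of Rps14 and Rps13 had limma adjusted P = 0.672 and 0.679 there, and Rps15a was at -0.30 (adjusted P = 0.108 with limma).

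**Figure D3:**
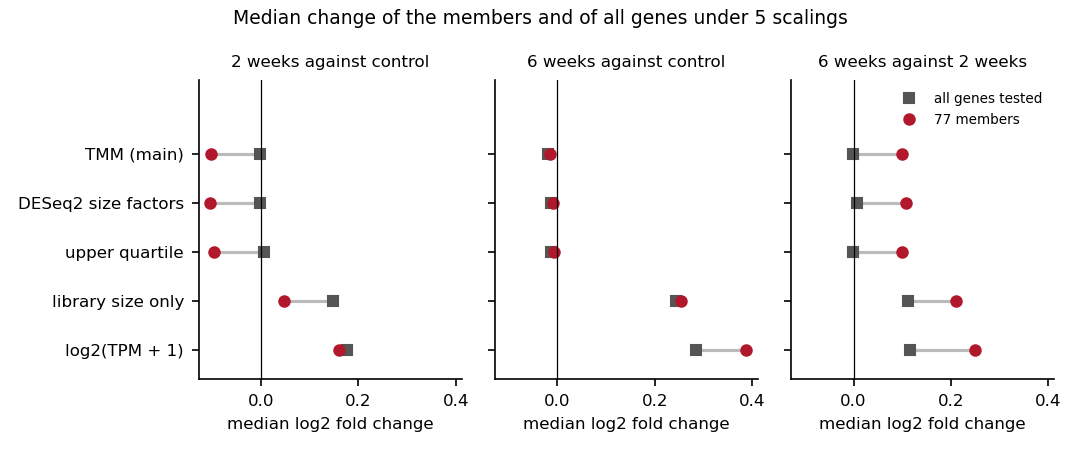
Median log2 fold change of the 77 ribosomal protein genes (red circles) and of all genes tested (grey squares) in the 3 comparisons under 5 scalings. Both medians shift to the right under library size alone and on the TPM scale, and the distance between them is largest, 0.13 log2, for TPM between 6 and 2 weeks.

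The summed level of the 77 genes was 10144 to 11885 CPM in controls, 9740.1 to 11006 CPM at 2 weeks and 9629 to 11110.2 CPM at 6 weeks. Group means differed from the control mean by -6.21% and -2.60%, the SD of the control group was 5.66% of its mean, and the ranges overlapped. As a share of raw counts the sum was 0.985 ± 0.0523% in control hearts, 1.03 ± 0.0619% in the 2-week group and 1.15 ± 0.0922% in the 6-week group (SD, n = 6 each). On the TPM scale it was 28.8% higher at 6 weeks than in controls. No test was made of these sums.

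Several members share nearly all their sequence with processed pseudogenes or retrogenes, and reads of identical sequence can be assigned to either row. In all, 241 rows had at least 50% of their 31-base words in transcripts of a gene named by the rule, and 64 of the 82 genes had such a copy. For 14 of the genes, 12 of them among the 77, at least 50% of the reads of the family were in the copies. Rps27, a zinc-finger protein of the small subunit, had 0 counts in all 18 mice, which is below the floor of 3 counts, while the single-exon gene Rps27rt (chr9:114982366-114982739, minus strand) held a mean of 1901 counts. Their coding sequences of 252 bases did not differ at any base. Rps27l, by contrast, differed from Rps27 at 60 of these bases, with no identical run beyond 11 bases. The first 120 coding bases are shown because they tell which rows can be separated. Capitals in Rps27l mark bases that differ from Rps27, and capitals in Rps2-ps13 those that differ from Rps2 (GRCm38, GENCODE M21).
Rps27, chr3:90212522-90213651, minus strand: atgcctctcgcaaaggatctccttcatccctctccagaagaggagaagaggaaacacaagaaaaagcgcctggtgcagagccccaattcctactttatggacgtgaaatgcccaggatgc
Rps27l, chr9:66946086-66949516, plus strand: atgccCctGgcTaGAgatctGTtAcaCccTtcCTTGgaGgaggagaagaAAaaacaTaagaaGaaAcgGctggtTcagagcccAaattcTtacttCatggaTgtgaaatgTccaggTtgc
Rps2, chr17:24718116-24721929, plus strand: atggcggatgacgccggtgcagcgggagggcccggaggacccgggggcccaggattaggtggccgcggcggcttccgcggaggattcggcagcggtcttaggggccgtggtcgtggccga
Rps2-ps13, chrX:52898588-52899469, plus strand: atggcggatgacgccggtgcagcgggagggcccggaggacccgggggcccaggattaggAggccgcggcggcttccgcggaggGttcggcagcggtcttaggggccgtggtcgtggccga
Laid side by side without gaps, Rps2 and the pseudogene Rps2-ps13 differed at 2 of the 120 bases and at 63 of the 882 compared. The longest identical run was 302 bases. The 63 can include bases shifted by an insertion or loss, which was not checked, so they are not a count of substitutions. Rpl12 and its copy Gm10275 (chr10:29698746-29699380, minus strand) were identical over all 495 coding bases.

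Rps2, which lines the entry of the mRNA channel, was among the members with the widest spread (this gene and the others named with it here, like Rpl27 and Rpl41, were chosen after their values were seen). Its row had 0.955 to 3.98 CPM in 6 mice, 149 to 186 CPM in 7 and 255 to 368 CPM in 5. Of the 6 low mice 2 were controls and 4 were at 6 weeks. In those 6 mice Rps2-ps13 had 201 to 434 CPM, against 0.301 to 3.19 CPM in the 5 mice where Rps2 was highest. Summed with its copies, Rps2 had 481, 516 and 570 CPM in controls and 398, 464 and 493 CPM at 6 weeks. The SD within groups was 2.84 log2 for the row and 0.09 for the sum. Rps7, which also binds MDM2, had 69.5 to 78.7 CPM in 4 mice (2 controls and 2 at 6 weeks) and 3.28 to 5.35 CPM in the other 14, and its log2 fold change of -2.71 at 2 weeks was not called by edgeR. Rpl21, Rpl26 and Rps12 showed such steps too. Of 12 members with an SD within groups above 0.5 log2, 6 came to 0.5 or less once copies were summed. The other 6 stayed above it, among them Rps25 (0.90), Rpl24 (0.76) and Rpl38 (0.56), for which copies held almost no reads.

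**Figure D4:**
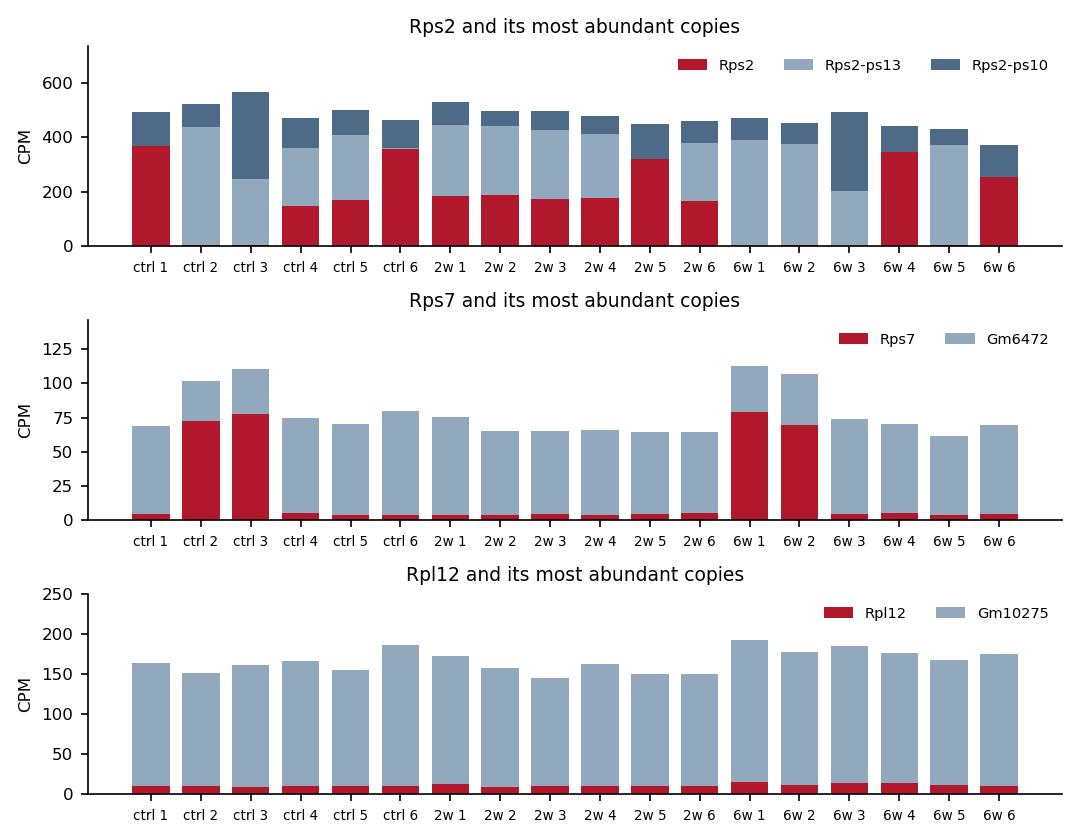
CPM per mouse (bars, 18 mice in 3 groups) of Rps2, Rps7 and Rpl12 in red and of their most abundant copies in blue, stacked. Rps2 changes places with Rps2-ps13 from mouse to mouse while the sum with all copies stays between 398 and 569.7 CPM, and the Rpl12 row is a thin part of its family.

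With copies summed into 79 genes (an analysis chosen after the data were seen), 6 genes were lower at 2 weeks, 2 higher and 1 lower at 6 weeks, and 6 higher at 6 than at 2 weeks, when 4.96%, 25.0% and 5.50% of all rows were called. No gene then had an absolute log2 fold change above 1 in either comparison with control. At 2 weeks Rps15a, Rps14, Rps21 and Rps13 were joined by Rpl34 (-0.33, SE 0.08, edgeR adjusted P = 0.0231) and Rpl27 (-0.22, SE 0.06, edgeR adjusted P = 0.0330). At 6 weeks Rpl12 was no longer called: the sum was at 152, 163 and 187 CPM in controls and 168, 177 and 194 CPM at 6 weeks (0.13, SE 0.06, edgeR adjusted P = 0.120). Rpl3, a large-subunit protein near the peptidyl transferase centre, was called instead, at 65.9, 69.7 and 90.4 CPM in controls and 73.1, 93.9 and 111 CPM at 6 weeks (0.32, SE 0.11, edgeR adjusted P = 0.0342), with overlapping groups. Rps2 was lower at 6 weeks by the values given above (-0.19, SE 0.06, edgeR adjusted P = 0.0248).

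Ratios of paralogs within a mouse do not depend on scaling between mice. For 5 pairs with both rows tested, none of the 15 exact permutation tests over mice (two-sided, 6 against 6) reached an adjusted P under 0.05, and 1 had an unadjusted P under 0.05. Rpl3l, the striated-muscle form of Rpl3, was the more abundant row of its pair, at 144, 191 and 214 CPM in controls and 101, 147 and 174 CPM at 6 weeks (change of Rpl3l -0.33, SE 0.13, edgeR adjusted P = 0.0637). Its ratio to Rpl3 was 8.94, 17.2 and 29.7 in controls and 5.53, 10.1 and 21.9 at 6 weeks (log2 difference -0.68, exact permutation P = 0.0931, adjusted P = 0.365). With copies summed the ratio was 1.60, 2.75 and 3.16 in controls and 0.980, 1.68 and 2.17 at 6 weeks (log2 difference -0.65, exact permutation P = 0.0173, adjusted P = 0.0779 over 18 tests).

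Summing also gave a value for the family of Rps27, which was the Rps27rt row alone, and reads of these identical coding sequences could come from either gene. Rps27 stands for that sum in what follows. The ratio of Rps27l to it was 0.173, 0.192 and 0.210 in control hearts (lowest, median and highest). It was 0.240, 0.274 and 0.286 in the 2-week group and 0.213, 0.263 and 0.318 in the 6-week group. Both irradiated groups lay above every control. The log2 difference from control was 0.47 at 2 weeks and 0.45 at 6 weeks (exact permutation P = 0.00216 for each, the smallest that 6 against 6 mice allow, adjusted P = 0.0195), and the 2 irradiated groups differed by -0.02 (exact permutation P = 0.855). At 2 weeks the ratio combined a value of 0.16 for Rps27l with -0.30 for Rps27 (SE 0.09, edgeR adjusted P = 0.0552), neither of them called alone. At 6 weeks the values were 0.38 and -0.07 (SE 0.09, edgeR adjusted P = 0.608 for Rps27). The ratio of Rpl36al, an intronless relative, to Rpl36a was 0.545, 0.582 and 0.681 at 2 weeks and 0.481, 0.526 and 0.560 at 6 weeks (log2 difference -0.19, exact permutation P = 0.00649, adjusted P = 0.0974 over 15 tests and 0.0390 over 18), with neither time separated from control. Ratios of Rps4l to Rps4x, Rpl22l1 to Rpl22 and Rplp2 to Rplp1 had exact permutation P values from 0.0823 to 0.983. Rpl10l and Rpl39l could not be compared with Rpl10 and Rpl39, since their rows were under the limit on low counts.

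**Figure D5:**
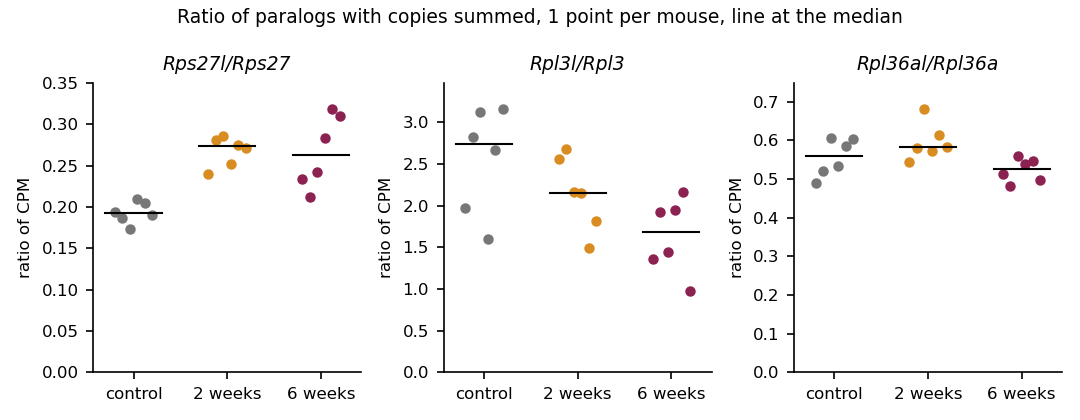
Ratio of CPM of 3 paralog pairs with copies summed, with 1 point per mouse, a line at the group median and the group on the horizontal axis. For Rps27l and Rps27 the highest control is 0.210 and the lowest irradiated mouse 0.213, and for the other pairs all groups overlap.

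Several members have roles beyond the ribosome, and those named here were not called in either comparison with control under TMM scaling. On the log2(TPM + 1) scale all of them but Rpl5 and Rplp1 were called higher at 6 weeks, as were 48.9% of all genes. Rpl11 and Rpsa were also higher there at 2 weeks, when 18.4% of all genes were. Rpl5 and Rpl11, which carry the small RNA of the large subunit and bind MDM2, had changes of -0.02 and 0.06 at 2 weeks and -0.34 and 0.04 at 6 weeks (SE 0.07 to 0.14, edgeR adjusted P = 0.0805 for Rpl5 at 6 weeks and 0.650 or more for the others). Copies held 95.5% of the reads of the Rpl5 family, and the sum with copies changed by -0.11 at 6 weeks (SE 0.07, edgeR adjusted P = 0.277). Rps6, the target of the S6 kinases below mTORC1, had 167, 197 and 218 CPM in controls, 177, 183 and 208 CPM at 2 weeks and 187, 202 and 209 CPM at 6 weeks. Its 95% interval at 6 weeks was -0.10 to 0.16. Rpsa, the laminin-receptor precursor, had 0.20 (95% interval -0.03 to 0.43) at 2 weeks and 0.07 (-0.16 to 0.30) at 6 weeks. Rps27a, made as a fusion to ubiquitin, had -0.16 (SE 0.06, edgeR adjusted P = 0.112) and -0.03. Stalk proteins Rplp0, Rplp1 and Rplp2 had -0.08, -0.23 and -0.10 at 6 weeks, none called.

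Of 5 members often used to normalize quantitative PCR (Rplp0, Rpl13a, Rps18, Rpl32 and Rpl4), none was called in any comparison under TMM scaling in edgeR. Their changes ran from -0.15 to 0.01 at 2 weeks and from -0.08 to 0.13 at 6 weeks. Between 6 and 2 weeks Rpl32 had 0.20 (SE 0.06, edgeR adjusted P = 0.0541), called higher in 12 of 34 other settings, and Rps18 had 0.25 (SE 0.14, edgeR adjusted P = 0.306). Under library size alone 4 of the 5 were called higher at 6 weeks, and on the log2(TPM + 1) scale all 5 were. Of all genes tested, 36.5% and 48.9% were higher there. Rpl13a had 95% intervals of -0.17 to 0.10 at 2 weeks and -0.15 to 0.12 at 6 weeks. For Rps18, copies held 75.2% of the reads of the family.

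Genes that act with the ribosome were counted from lists chosen with earlier results of these data known. Of all genes tested, 5.02% were called at 2 weeks and 25.0% at 6 weeks (13.5% up and 11.5% down). Among ribosomal proteins and relatives outside the name rule, Fau, Rack1, Rpl22l1, Rpl7l1 and Rpl36al were not called in any comparison. At 2 weeks 1 of 30 initiation factors fell, Eif1, which guards the choice of start codon (-0.29, SE 0.06, edgeR adjusted P = 0.00902), and none of 8 elongation factors was called. At 6 weeks 3 initiation factors rose and 6 fell, with Pabpc1, the poly(A)-binding protein, going from 112 ± 6.71 to 152 ± 11.5 CPM (SD, n = 6 each, 0.44, edgeR adjusted P = 6.7e-05) and Eif4a2, a helicase, changing by -0.26 (edgeR adjusted P = 0.00244). Among elongation factors 1 rose and 2 fell. Eef1a1, the general form that delivers aminoacyl-tRNA, went from 663 ± 83.7 to 860.2 ± 70.2 CPM (0.38, SE 0.08, edgeR adjusted P = 0.00153), and Eef1a2, the form of muscle and neurons, from 1202 ± 150.1 to 928 ± 65.97 CPM (-0.37, SE 0.08, edgeR adjusted P = 0.00215). Both Pabpc1 and Eef1a1 have pyrimidine-tract mRNAs, and of 18 such genes outside the ribosome 2 rose and 3 fell at 6 weeks. The medians of these lists at 6 weeks were -0.05 for initiation, -0.11 for elongation and -0.07 for the other pyrimidine-tract mRNAs, beside -0.02 for all genes tested. With library size alone 15, 3 and 8 of them were higher and none lower, when 36.5% of all genes were higher.

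Among 39 genes of ribosome biogenesis 1 rose and 1 fell at 2 weeks and 2 rose and 1 fell at 6 weeks. The shares of all genes called, for this list and those below, were 5.02% at 2 weeks and 25.0% at 6 weeks. Ddx21, a nucleolar helicase, had 0.23 at both times (SE 0.06, edgeR adjusted P = 0.0380 and 0.0114), Nop10, a part of the pseudouridylation complex, fell by 0.38 at 2 weeks (SE 0.08, edgeR adjusted P = 0.0132), and Rrn3, needed by RNA polymerase I, by 0.20 at 6 weeks (edgeR adjusted P = 0.0295). Of 21 genes of mTORC1 and its control of these mRNAs, Sesn2, an inhibitor of mTORC1 and a p53 target gene, rose from 4.998 ± 1.415 CPM to 18.9 ± 1.504 CPM in the 2-week group and 17.98 ± 1.485 CPM in the 6-week group (SD, n = 6 each) (1.90 and 1.83, SE 0.13 for both, edgeR adjusted P = 6.08e-08 and 6.06e-08). No other gene of that list was called at 2 weeks, and 3 fell at 6 weeks, among them Tsc2 (-0.28, edgeR adjusted P = 0.00386). Of 11 tested ribosomal proteins known to bind MDM2, all of them members here, Rps14 was called at 2 weeks and Rps27l at 6 weeks.

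The proteins of the mitochondrial ribosome are encoded by 79 tested nuclear genes, and their counts are given for comparison. At 6 weeks 32 of 79 (none higher) were called lower with a median of -0.28, beside 0 of 77 cytosolic genes lower and a median of -0.02. Of all genes tested, 11.5% were lower then. At 2 weeks 2 of the mitochondrial ribosomal protein genes were lower, with a median of -0.15, when 1.93% of all genes were lower. With library size alone 1 was higher and 2 lower at 6 weeks, when 36.5% of all genes were higher and 2.17% lower. The median of the mitochondrial family was then -0.01, against 0.25 for the cytosolic genes. On the log2(TPM + 1) scale its median was above 0, at 0.12, beside 0.39 for the cytosolic genes. There 12 mitochondrial ribosomal protein genes were higher and 1 lower, when 48.9% of all genes were higher and 0.784% lower. The difference between the families was not tested.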

How the data were processed

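RNA from 18 mouse hearts was sequenced as paired reads. The authors mapped reads with STAR to GRCm38, estimated transcript levels with Salmon 1.0, and deposited estimated counts per gene summarised with tximport, together with TPM values, which the authors normalized for transcript length and depth. Here the deposited estimated counts were rounded, and the 15054 genes reaching 0.23 CPM in 6 or more mice were tested. The 3 groups were fitted together with edgeR 4.0.16 (R 4.3.3; TMM scaling, quasi-likelihood test, two-sided, Benjamini-Hochberg adjustment over all genes tested). CPM in the text is scaled by TMM, except for the level limit and the 3-count floor, which use library size alone. TPM was tested with limma 3.58.1 on log2(TPM + 1) and log2(TPM + 0.1), DESeq2 1.42.0 was an alternative, and paralog ratios were tested by exact permutation in SciPy 1.17.1. Symbols (29301 rows) and transcripts came from GENCODE M21, and start sites from RefSeq. On data simulated for the 6-week comparison, 176 of 200 genes changed 2-fold were called, and 8 unchanged genes, among 15048. Smaller changes, such as those of the members called, were not simulated. Depth limits precision as the 3-count floor states, for counting error only. Replicates are separate mice, and same-numbered mice of different groups were not treated as paired.

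The named members were those called with the smallest adjusted P (up to 5 a direction and comparison), paralog pairs, Rpl5, Rpl11, Rps6, Rpsa, Rplp0, Rplp1, Rplp2, Rps27a, genes used as PCR references, and the highest and lowest by TPM. Members, lists and rules were chosen with earlier results of these data known. The result for 1 gene outside the name rule is not reported here.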

Additional observations from a re-analysis of the deposited data

Results flagged for a closer look

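Of 90 tests of a single mouse standing apart from its group of 6 (Dixon's test), 5 were positive, where chance gives about 5%. Rpl34 was at 3.67 CPM in 1 control and at 2.34 to 2.42 CPM in the others. Rplp0 was at 316 CPM in 1 mouse at 6 weeks, with 403 to 436 CPM in the others. Rplp1 reached 512 CPM in 1 control, above 319 to 389 CPM in the rest of the group. Rplp2 was at 119 CPM in 1 mouse at 2 weeks, below 146.0 to 155 CPM. Rpsa was at 333 CPM in 1 control, above 267 to 291 CPM.

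The effect at 6 weeks differed from that at 2 weeks in 3 genes by the edgeR test of the difference, which is the contrast between the irradiated groups. It was 0.39 on the log2 scale for Rps15a (adjusted P = 0.00272), 0.21 for Rps13 (adjusted P = 0.0364) and 0.35 for Rpl12 (adjusted P = 0.0486). Of 34 other settings, 34 called Rps15a, 24 Rps13 and 17 Rpl12.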

How the results depend on the processing

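Counts of ribosomal protein genes called moved by over 1.5 times under several settings, and the cause was not tested. The share of all genes called, given in parentheses, moved too. At 2 weeks the count was 4 and became 7 at an adjusted P under 0.10, 8 with DESeq2 (8.16%), 14, all higher, on log2(TPM + 1) (18.7%) and 14 on log2(TPM + 0.1) (20.1%), and 2 to 6 with 1 mouse left out. At 6 weeks the count was 2 and became 4 at an adjusted P under 0.10, 45 with library size as the only scaling (38.7%), 57 on both TPM scales (49.6%), and 2 to 4 with 1 mouse left out. Between 6 and 2 weeks the count was 3 and became 6 at an adjusted P under 0.10, 6 with DESeq2 (7.73%), 6 with voom and sample weights (7.94%), 15 with library size only (7.98%), 5 with DESeq2 size factors (5.45%), 1 without the filter (2.67%), 5 with the filter read literally (5.62%), 15 on log2(TPM + 1) (7.13%), 11 on log2(TPM + 0.1) (4.99%), 6 with copies summed (5.50%), and 1 to 5 with 1 mouse left out. The 2-week values of Rps13 and Rps14 turned positive on the TPM scales, to 0.0439 and 0.0632 with a pseudocount of 1 and 0.0440 and 0.0633 with 0.1. The summed level differed from control at 2 weeks by 4.32% as a share of counts, 0.0693% without mitochondrially encoded genes and 8.69% by TPM, and at 6 weeks by 17.2%, 10.0002% and 28.8%. The ratio of Rpl36al to Rpl36a between 6 and 2 weeks (-0.19, exact permutation P = 0.00649) was the same with copies summed. Its adjusted P was 0.0974 over 15 tests and 0.0390 over 18, where the tests of Rps27l to Rps27 were added. In 15 of 225 settings a paralog ratio had the other sign, none of them with an adjusted P under 0.05.

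With the replicate number as a block, 2 genes were called at 2 weeks, 2 at 6 weeks and 1 between the times. Same-numbered mice correlated at -0.083 to 0.106, over 0.1 in 2 of 18 pairs. Mice of different numbers were not compared, so whether the numbers pair the mice was not decided.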
